A study of Mus musculus with 12 samples.

Results

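Osteoclasts grown from the bone marrow of wild type mice whose Hes1 gene carried loxP sites are described here by the abundance of their transcripts. These cultures make up 3 of the 12 bulk RNA libraries of the series, chosen by their label alone, and the labels call them biological replicates. The 12 libraries form 4 groups of 3, which are wild type Hes1 loxP, Notch2 mutant Hes1 loxP, wild type Hes1 deletion and Notch2 mutant Hes1 deletion. All came from male mice aged 7 to 8 weeks, with littermates as controls per the design text. Marrow was flushed out, macrophages were expanded with 30 ng/ml of the growth factor M-CSF, and from day 3 they also received RANKL, the signal for osteoclast formation, over 4 days. For the wild type Hes1 loxP cultures the labels give a wild type genotype with the floxed gene. The sources used here do not say whether a Cre transgene or virus was present, or whether 1 mouse or several gave each culture. If the 3 libraries shared a source, their spread would be partly technical.

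Osteoclasts are large multinucleated cells that form when precursors of the macrophage lineage fuse. They seal a patch of bone under a ring of actin-rich podosomes, pump protons into the space beneath through a vacuolar ATPase (V-ATPase), and release enzymes such as cathepsin K that digest the collagen matrix once the mineral has dissolved. RANKL acts through its receptor RANK and through costimulatory immunoreceptors to induce NFATc1, the transcription factor that turns on most genes of the resorbing cell.

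The 3 libraries held 13873032, 19293772 and 17979599 counts assigned to genes in replicates 1, 2 and 3. Levels are given as counts per 1000000 assigned counts (CPM) and, where genes are compared with each other, as transcripts per 1000000 transcripts (TPM), which divides by the gene's exon length. Triplets of values follow the order of replicates 1, 2 and 3, and a single value with ± is a mean with its SD (n = 3). A gene counted as detected when it reached 1 CPM in all 3 libraries, which 11688 genes did. Of these, 8547 reached 10 CPM, 2135 reached 100 CPM and 81 reached 1000 CPM in all 3. The median detected gene stood at 23.04 TPM. Where a gene had no counts, the limit that a count of 0 allows (3 counts) was 0.216, 0.155 and 0.167 CPM, and it covers counting error only.

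The 7 genes taken as markers of osteoclasts were all present in every library, and they held 37142, 36939.8 and 39860.1 CPM in sum. Ctsk, which encodes cathepsin K (chr3:95499256-95509362 in GRCm38), was at 19434, 20051 and 20356 TPM and ranked first of all genes per length, although Mmp9 passed it when the longest transcript gave the length. Mmp9, the gelatinase of the osteoclast (chr2:164940780-164955850), was at 18093, 17959 and 19858 TPM, and Acp5, the tartrate-resistant acid phosphatase (chr9:22126727-22135711), was at 11787, 11387 and 12212 TPM. All 3 genes were highest in replicate 3. The fusion genes were lower. Atp6v0d2 (chr4:19876841-19922605) was at 1428, 1616 and 1502 TPM, Dcstamp (chr15:39745930-39760938) at 459.9, 508 and 541 TPM and Ocstamp (chr2:165393760-165400405) at 325, 361 and 374 TPM. Both Dcstamp and Ocstamp encode multipass membrane proteins needed for the fusion of precursors. Calcr, the calcitonin receptor (chr6:3685680-3764714), stood at only 25.6, 24.9 and 22.2 TPM, close to the median detected gene.

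Genes of bone resorption led the whole transcriptome. By counts, Mmp9 was first with 19220, 18911 and 21091 CPM, Ctsk second with 8820.0, 9020.4 and 9237 CPM and Acp5 next with 7182, 6878 and 7439.5 CPM. Actb, Lyz2, Fth1, Eef1a1, Ckb, Ftl1 and Vim completed the first 10. Per length, Ctsk and Mmp9 were followed by Lyz2, the macrophage lysozyme (15572 ± 898 TPM), by Acp5, and by Ftl1, the ferritin light chain (11104 ± 341 TPM). Ckb, the brain-type creatine kinase that supplies ATP in osteoclasts, reached 5857 ± 523 TPM. Psap, the precursor of the saposins, and Cd68, a lysosomal membrane glycoprotein of the macrophage lineage, followed at 4937 ± 323 TPM and 4025 ± 179 TPM. 14 genes stood among the first 25 on both scales. Of the first 25 by TPM, mt-Co1, mt-Nd1 and mt-Cytb, which are encoded in mitochondrial DNA, differed most between libraries, and mt-Co1 was at 7582, 11090.3 and 8367 TPM.

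**Figure D1:**
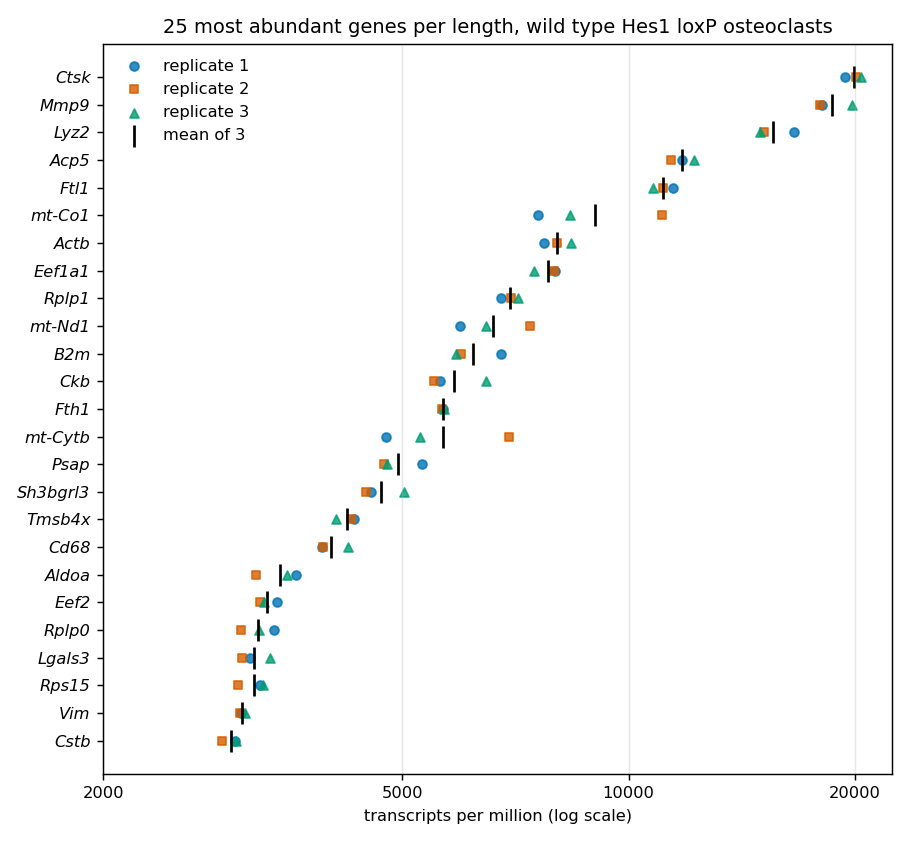
The 25 genes with the highest mean TPM in wild type Hes1 loxP osteoclasts, with TPM on a log axis; each symbol is a library and the bar is the mean of 3. Ctsk and Mmp9 lie highest, and the 3 symbols of mt-Co1 and mt-Cytb lie farthest apart, with replicate 2 highest.

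The counts were spread over many genes. The first 10 genes held 7.37, 7.31 and 7.63% of the assigned counts, the first 100 held 21.2, 21.3 and 21.6%, and the first 1000 held 54.6, 54.98 and 55.004%. It took 783, 770 and 768 genes to reach 50% of the counts. Protein-coding genes held 98.9 ± 0.00678% in these mRNA libraries. Some of the most abundant genes are understated. Reads that align to several places or fall on overlapping genes are set aside in the deposited tables, and 84.8% of the 75-base words of Ftl1, 65.4% of those of Eno1 and 41.7% of those of Eef1a1 also occur in transcripts of other annotated genes, against 0% for Ctsk and Mmp9.

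For most subunits of the proton pump, a single paralog held nearly all transcripts. The V-ATPase has a cytosolic V1 part that splits ATP and a membrane V0 part that carries protons, and several subunits have paralogs used in different organs. Of 23 V-ATPase genes, 17 were detected and 5 had no count in any library. The V0 subunit a3, Tcirg1, which is mutated in human osteopetrosis, was at 1062, 1008 and 1149 TPM. It held 93.95 ± 0.456% of the summed TPM of the 4 a subunits, with Atp6v0a2 at 42.1, Atp6v0a1 at 26.7 and Atp6v0a4, an isoform of kidney and inner ear, at 0 TPM. For subunit B, all counts were in Atp6v1b2 (1383 ± 38.2 TPM), and the kidney paralog Atp6v1b1 was at 0 in each library. The same held for Atp6v1c1 (318 ± 11.4 TPM) over Atp6v1c2 and for Atp6v1e1 (388 ± 11.4 TPM) over Atp6v1e2. Atp6v1g1 held 99.7 ± 0.0442% of subunit G, Atp6v1g2 stood at 3.35 TPM and Atp6v1g3 had no counts. Subunit d was the exception, since both paralogs were abundant. Atp6v0d2, the isoform induced in osteoclasts, held 78.4 ± 1.245% and Atp6v0d1, present in most cells, held 21.6 ± 1.245%.

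The remaining pump subunits spanned a wide range. Atp6v0c and Atp6v0b, which form the proteolipid ring, stood at 1137 ± 11.9 TPM and 1134 ± 28.3 TPM, and the catalytic subunit Atp6v1a at 858 ± 17.2 TPM. Atp6v1f was at 705, Atp6v0e at 331, Atp6v1d at 311 and Atp6v1h at 102 TPM, while Atp6v0e2 was at 0.392 TPM, the lowest subunit with any count. The whole list held 11116, 11418 and 11609 CPM, which is 1.14% of the counts. Of the other genes of acid secretion, 16 of 17 were detected. Clcn7, the chloride-proton exchanger that balances the charge of the pumped protons, was at 468, 487 and 521 TPM and its partner Ostm1 at 73.5 ± 1.53 TPM. Slc4a2, the bicarbonate-chloride exchanger of the basal membrane, was at 328 ± 21.8 TPM, and Car2, the carbonic anhydrase that supplies the protons, at 402 ± 36.7 TPM. The pump's accessory proteins Atp6ap1 and Atp6ap2 were at 752 ± 20.6 TPM and 632 ± 11.8 TPM, and the small GTPase Rab7 at 714 ± 19.1 TPM. Slc9b2, a sodium-proton exchanger, was at 288 ± 12.6 TPM and Snx10, a sorting nexin needed for resorption, at 206 ± 14.04 TPM. Slc9c1 was at 0 and Slc9a7 was the lowest detected member at 7.77 TPM.

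A similar dominance of single paralogs held in other families. In 14 of 35 families a single member held at least 90% of the summed TPM, and in 28 of 35 at least 50%. Acp5 held 98.7 ± 0.0832% of the acid phosphatases and Ckb 99.7 ± 0.0167% of the creatine kinases, in which the muscle enzyme Ckm was at 2.32 TPM and the mitochondrial Ckmt1 and Ckmt2 at 12.4 and 0 TPM. Of 16 carbonic anhydrases, Car2 held 87.4 ± 1.38% and Car13 9.52 ± 1.23%, and Car1, Car3, Car4, Car10 and Car14 had no counts. Clcn7 held 87.7 ± 0.461% of the chloride channels and exchangers. Lyz2 held 99.1 ± 0.0567% of the lysozyme pair and Actb 79.1 ± 1.04% of the actins. The families whose leading member held the smallest share were the tetraspanins, led by Cd63 with 21.6 ± 0.872%, the TRAF adaptors and the integrin alpha chains.

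**Figure D2:**
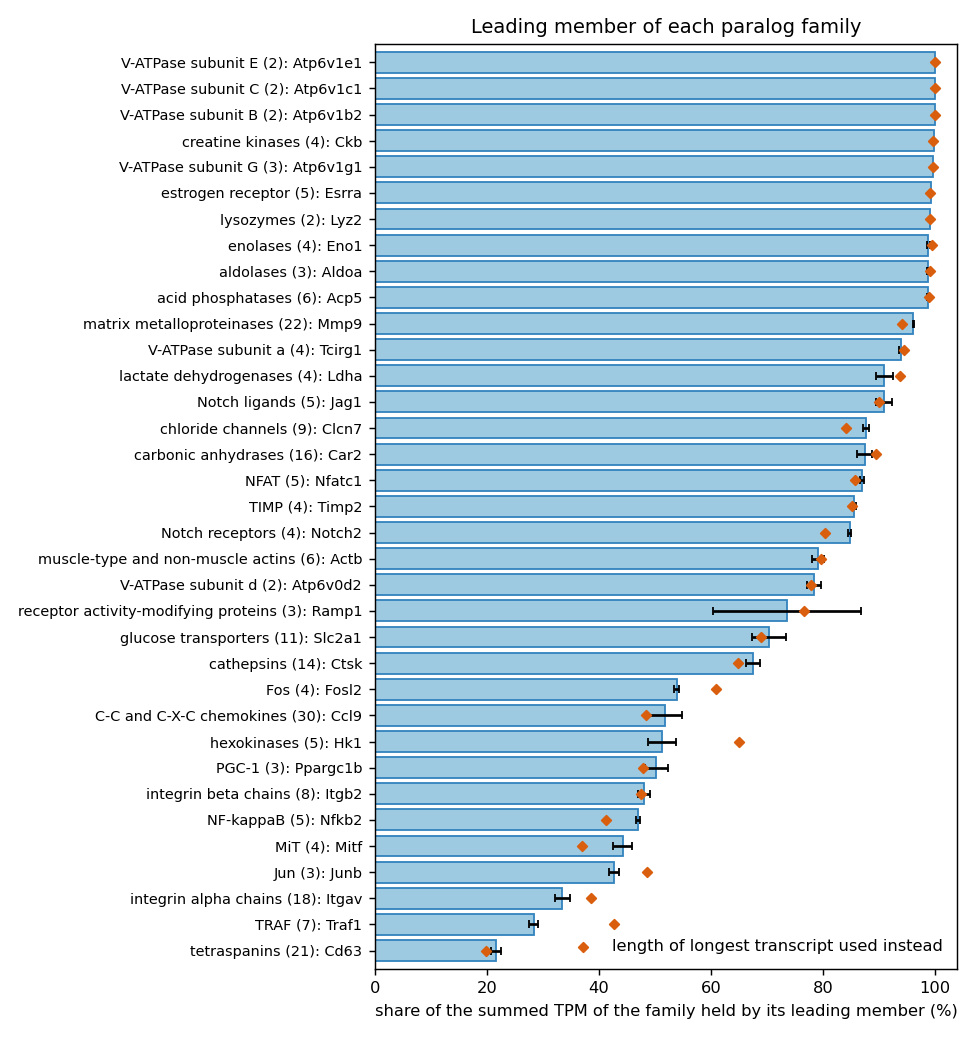
Share of the summed TPM of each of 35 paralog families held by its leading member; the number of members stands in brackets, bars are means of 3 libraries with SD as error bars, and diamonds show the share when the longest transcript gives the length. The 3 V-ATPase families with subunits E, C and B lie at 100%, and tetraspanins, TRAF and integrin alpha chains lie lowest.

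Proteases were abundant. Of 14 cathepsins, 13 were detected, and the family held 17978, 17575 and 18014 CPM. Ctsk held 67.5 ± 1.29% of its TPM. Behind it came Ctsz at 2864 ± 49.2 TPM, Ctsd, an aspartic protease, at 1993 ± 89.2 TPM, and Ctsb at 1684 ± 54.7 TPM. Ctsb and Ctss are not separated by these data, since their order was not the same in all libraries. Ctss was at 1794, 1449 and 1333 TPM, higher in replicate 1 than in the others. Ctsa followed at 689, Ctsl at 485 and Ctsc at 289 TPM. Ctsg, a protease of neutrophil granules, was at 14.03 TPM and Ctsw, of lymphocytes, at 0.0635 TPM. The list of osteoclast enzymes held 44797, 44378 and 48567 CPM, or 4.59% of all counts. Replicate 3 was highest for 8 of 9 members at a mean of 1 CPM or more, against 32.3% of all genes at that level. Among the other members of the list, Slc37a2, a sugar-phosphate transporter, was at 931 ± 37.4 TPM and Anpep, an aminopeptidase, at 130.1 ± 11.6 TPM.

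Matrix metalloproteinases were represented almost entirely by Mmp9, with 96.1 ± 0.0915% of the summed TPM of 22 members. Mmp14, a membrane-anchored collagenase, was second at 588, 625 and 679 TPM, and it too was highest in replicate 3. Mmp8 was at 62.6, Mmp19 at 27.2, Mmp27 at 13.6, Mmp12 at 7.22, Mmp13 at 4.94 and Mmp2 at 3.67 TPM. Mmp1a, Mmp3, Mmp7, Mmp15, Mmp16, Mmp20 and Mmp21 had no counts. Of the inhibitors, Timp2 was at 195 ± 2.35 TPM and held 85.5 ± 0.307% of the TIMP family, Timp1 was at 29.4, Timp3 at 3.50 and Timp4 at 0 TPM. Rptn, an epidermal matrix gene, was at 0 and the protease Adamts9 at 0.0292 TPM.

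All 38 lysosomal genes were detected and 28 reached a mean of 100 CPM. The list held 23014, 22260.3 and 22994 CPM, and its summed level differed little between libraries. Among those behind Psap and Cd68 were Cst3, the secreted inhibitor cystatin C (2159 ± 121 TPM), Hexa, a glycosidase subunit (1910.1 ± 59.2 TPM), Grn, progranulin (1598 ± 36.7 TPM), and Laptm5 (1153 ± 55.3 TPM). Arsb, a sulfatase that acts on glycosaminoglycans, was at 1033 ± 90.9 TPM. Scarb2, the receptor for glucocerebrosidase, was lowest at 30.2 ± 1.63 TPM.

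Promoters of these genes are shown because the MiT factors, which include MITF and TFEB, are known to bind E-box words of lysosomal and osteoclast promoters. Windows of 250 bases before to 50 after each start site were taken from RefSeq (GRCm38.p6) and searched on both strands for the E-box word CACGTGAC (reverse complement GTCACGTG) and the M-box word TCATGTGA (reverse complement TCACATGA). A gene was counted once per word, also where both orientations overlapped, and the E-box and M-box words were counted apart. The E-box word was in 689 of 27025 promoters (2.55%), in 4.97% of those of detected genes and in 7 of the 28 lysosomal genes with a promoter in the table. The M-box word was in 310 promoters (1.15%), in 0.973% of those of detected genes and in 5 of the 28 lysosomal genes. The E-box word was in 0 of 9 osteoclast enzymes, 0 of 10 fusion genes and 2 of 17 V-ATPase genes. It was in 0 of 30 genes of integrins, podosomes and Src. The M-box word was in 1 of 9, 0 of 10, 1 of 17 and 0 of 30 of these lists. Cathepsins held the E-box word in 2 of 10, acid secretion genes in 2 of 15 and osteoclast transcription factors in 2 of 18. Nuclear-encoded respiratory chain genes held it in 1 of 59 and glycolysis genes in 1 of 25. For the M-box word these lists gave 1 of 10, 1 of 15, 0 of 18, 0 of 59 and 0 of 25. A match is a description of letters and shows no binding. Windows of 30 bases are printed 5′ to 3′ on the gene's strand, with the matched word in capitals, first for the E-box word.
Ctsa: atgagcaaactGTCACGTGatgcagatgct
Lamp1: atgccgactggCACGTGACcacatcacgtg
Glb1: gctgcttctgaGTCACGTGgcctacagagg
Lgmn: atggaatgtctGTCACGTGgtccattttat
Atp6v0b: tgtgcgcggggGTCACGTGgggtcggcgca
Atp6v0d1: gccctactgcgGTCACGTGagacgcggtgc
Clcn7: ctccgtcgtcaGTCACGTGggcaccgatga
The following windows hold the M-box word.
Acp5: aagtccagtgcTCACATGAcccaaggggag
Atp6v0c: gcggggacagaTCATGTGAcgcgagcgcgg
Ctss: ttgtggatgctTCATGTGAcaagctccgat
Grn: tgattctctaaTCACATGAtccctagaaat
Tpp1: ccagaccatgcTCATGTGActtatcacatg
The E-box windows lie as follows, with Ctsa at chr2:164833748-164833777 on the plus strand, Lamp1 at chr8:13159122-13159151 on the plus strand, Glb1 at chr9:114401017-114401046 on the plus strand, Lgmn at chr12:102439125-102439154 on the minus strand, Atp6v0b at chr4:117887349-117887378 on the minus strand, Atp6v0d1 at chr8:105566051-105566080 on the minus strand and Clcn7 at chr17:25133363-25133392 on the plus strand. The M-box windows lie with Acp5 at chr9:22130671-22130700 on the minus strand, Atp6v0c at chr17:24169449-24169478 on the minus strand, Ctss at chr3:95526793-95526822 on the plus strand, Grn at chr11:102430285-102430314 on the plus strand and Tpp1 at chr7:105752213-105752242 on the minus strand. No table entry was matched for Mmp9, Atp6v0d2, Ocstamp or Dcstamp.

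The levels of the genes shown ranged widely. Lamp1, the main lysosomal membrane protein, was at 948 ± 71.6 TPM, Lgmn, an asparaginyl endopeptidase, at 526 ± 40.1 TPM, and Glb1, beta-galactosidase, at 362 ± 1.85 TPM. Tpp1, a tripeptidyl peptidase, was at 295 ± 6.05 TPM, and Ctsa, which also shields other lysosomal enzymes, at 689 ± 30.8 TPM. The MiT factors themselves were modest. Mitf was at 69.3 ± 3.41 TPM, Tfe3 at 45.3 ± 0.705 TPM, Tfec at 23.6 ± 0.889 TPM and Tfeb at 18.5 ± 0.921 TPM. This order was the same in all 3 libraries, but with the longest transcript as length Tfeb, with 18.8% of the family, passed Tfec, with 16.4%.

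Of 15 fusion genes, 14 were detected. Below Atp6v0d2, Adam8, a membrane metalloproteinase, was at 559 ± 4.92 TPM, and the tetraspanin Cd9 at 373, 322 and 337 TPM. Cd44, the hyaluronan receptor, was at 244 ± 4.38 TPM, Mst1r, a receptor tyrosine kinase, at 202 ± 21.3 TPM, and Myo10, an unconventional myosin, at 108 ± 7.94 TPM. Adam12 was not detected, with 0.166 TPM. The list held 4758, 5014 and 5060.0 CPM, lowest in replicate 1.

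Receptors that start osteoclast formation were present in every library. Tnfrsf11a, which encodes RANK, was at 164, 168 and 168 TPM, and Csf1r, the receptor of M-CSF, at 1178, 1153 and 1175 TPM. Their CPM varied by 1.31% and 1.67% of the mean (SD). Tyrobp, the adaptor DAP12, was far above the receptors it serves, at 2727 ± 77.1 TPM, and Fcer1g, the other adaptor, was at 999.7 ± 39.2 TPM. Oscar, which pairs with Fcer1g, was at 494 ± 34.5 TPM, Siglec15, which pairs with Tyrobp, at 272 ± 18.9 TPM, and Trem2, also a partner of Tyrobp, at 66.3 ± 4.40 TPM. The ligands were nearly absent. Tnfsf11, RANKL itself, had 2, 2 and 3 counts, and Tnfrsf11b, the decoy receptor osteoprotegerin made by osteoblasts, had 9, 6 and 9 counts. Csf1 was at 3.33 and Il34, the second ligand of the M-CSF receptor, at 3.13 TPM.

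Of 29 proteins of the RANK pathway, 28 were detected, and their sum was the most even of the lists, at 3395, 3381 and 3386 CPM. Grb2, an adaptor of receptor tyrosine kinases, led at 311 ± 11.6 TPM. Syk, the kinase below the costimulatory receptors, was at 153 ± 2.14 TPM, Plcg2, which releases calcium, at 141 ± 2.92 TPM, and Btk at 135 ± 4.49 TPM. Rcan1, a calcineurin regulator, was at 136 ± 8.40 TPM, Tab2 at 115 and Mapk14, the kinase p38, at 108 TPM. Traf6, the adaptor of RANK, was at 38.4 ± 2.41 TPM, below Traf1 (75.6 TPM) and Traf3 (64.7 TPM). Among the NF-kappaB subunits Nfkb2 led with 46.9 ± 0.352%, and Rela held 24.2 ± 0.0484%, while Nfkb1 and Relb stood at 45.6 and 44.97 TPM and Rel was lowest at 27.9 TPM. The order below Nfkb2 depended on the length used, since with the longest transcript Nfkb1 held 23.9%, Rela 20.2% and Relb 9.61%. Camk4, a calcium-dependent kinase upstream of NFATc1, had 3, 0 and 0 counts and was the only member below detection.

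Among the transcription factors Jdp2, a member of the AP-1 family, was highest at 1225, 1256 and 1307 TPM. Spi1, the lineage factor PU.1, was at 909.9, 917 and 981 TPM and Nfatc1 at 413, 435 and 452 TPM. Replicate 3 was the highest library for Spi1 and Nfatc1, and for 15 of 22 listed factors at a mean of 1 CPM or more. Among all genes at that level the share was 32.3%. Nfatc1 held 86.9 ± 0.395% of the NFAT family, with Nfatc3 at 33.8, Nfat5 at 16.5, Nfatc2 at 14.2 and Nfatc4 at 0.618 TPM. In the AP-1 families Fosl2 held 53.9 ± 0.453% of the Fos group and Fos 44.1 ± 0.381%, while Fosb was close to 0 at 0.0873 TPM. Junb and Jund stood at 399.5 ± 15.2 TPM and 371 ± 25.3 TPM, and Jun at 166 ± 11.1 TPM. Junb was above Jund within each library, although their ranges over the libraries overlapped. Bhlhe40, a repressor of the bHLH family, was at 210.2 ± 6.95 TPM and Myc at 170.0 ± 6.40 TPM. Prdm1, the repressor Blimp1, was at 88.7 ± 2.64 TPM. Of the PGC-1 coactivators, Ppargc1b and Pprc1 stood at about the same TPM (53.4 and 52.6), in an order that differed between libraries, and Ppargc1a was at 0.0474 TPM.

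Genes known to restrain osteoclast formation were lower as a group. The 18 repressors held 1124, 985 and 1035 CPM in sum, and 15 were detected. Cebpb led at 158 ± 22.1 TPM, and Zbtb7a was next at 107 ± 7.11 TPM. Id3 was at 69.5, Maf at 59.6, Rbpj, the DNA-binding partner of Notch, at 43.8, Irf1 at 42.8 and Tnfaip3 at 42.7 TPM. Irf8, which RANKL lowers in precursors, was outside the named ranks and stood at 21.9, 16.1 and 18.1 TPM. Replicate 1 was the highest library for 13 of 16 repressors at a mean of 1 CPM or more, where over all genes at that level it was highest for 37.5%. Eomes was lowest at 0.0193 TPM.

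All 39 genes of integrins, podosomes and Src were detected, and they held 2.84% of the counts. The cytoskeleton led, with Actb at 8042 ± 334 TPM, Actg1 at 2095 ± 163 TPM, the actin-severing cofilin Cfl1 at 1997 ± 31.6 TPM and profilin Pfn1 at 1839 ± 72.1 TPM. Arpc2, of the Arp2/3 complex, was at 1275 ± 16.4 TPM and Rac2, a small GTPase of blood cells, at 1002 ± 41.999 TPM. Gsn, gelsolin, was at 948 ± 44.03 TPM, and Src, the kinase needed for the ruffled border, at 363 ± 4.88 TPM. Of the beta chains, Itgb2 held 48.1 ± 1.11%, Itgb1 23.7 ± 0.246% and Itgb3 16.4 ± 0.791%, in the same order in all 3 libraries. Itgb3 pairs with Itgav to form the vitronectin receptor of osteoclasts. Itgav led the alpha chains with 210.4, 243 and 228 TPM, then came Itga5 at 182 ± 7.04 TPM and Itgam at 83.2 ± 2.40 TPM, while Itgal and Itga4 stood at 53.7 ± 4.97 TPM and 47.6 ± 2.73 TPM. Itgb6 had no counts, and Wasl was the lowest detected member at 9.84 TPM.

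Hormone receptors were scarce. Of 21 on the list, 12 were detected. The summed level of 1167, 1330.0 and 1098 CPM was mostly Lrp1, a large endocytic receptor at 149, 182 and 140.2 TPM that was highest in replicate 2. Calcrl, the receptor of calcitonin gene-related peptide, was at 56.1 ± 3.79 TPM, above Calcr, but its partners Ramp1, Ramp2 and Ramp3 were at 1.29, 0.0176 and 0.516 TPM. Nr3c1, the glucocorticoid receptor, was at 36.6 ± 2.58 TPM, Rarg and Rara, receptors of retinoic acid, at 22.8 and 19.1, and Thra at 17.7 TPM. Vdr, the vitamin D receptor, was at 1.19 TPM. Esr1, the estrogen receptor alpha, was at 0.601 TPM and Esr2 had no counts, while the orphan relative Esrra stood at 76.6 ± 3.44 TPM. Pth1r, the parathyroid hormone receptor of osteoblasts, had 5, 12 and 2 counts. Fshr and Tshr had no counts in any library.

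Factors through which osteoclasts signal to osteoblasts were present at moderate levels, and 20 of 28 were detected. Sema4d, a semaphorin that restrains osteoblasts, led at 396, 403 and 404 TPM. Complement C3 was at 232 ± 29.3 TPM, Tgfb1 at 194 ± 10.2 TPM, Pdgfb, the B chain of PDGF-BB, at 167 ± 7.77 TPM, and Sphk2, a sphingosine kinase, at 102 ± 7.42 TPM. Cxcl16 was at 85.4, Sema7a at 61.3 and Pdgfa at 47.4 TPM. Bmp6 and Igf2 had no counts, and Ephb2 was the lowest with any count at 0.0395 TPM. Of 29 cytokines and chemokines, 24 were detected. Spp1, osteopontin, led at 1951 ± 129 TPM, then Mif at 1451 ± 105 TPM and the chemokine Ccl9 at 1277 ± 47.8 TPM. Ccl9 held 51.7 ± 3.13% of the chemokines, Ccl6 14.2 ± 2.53%, Pf4 9.68 ± 1.15% and Ccl2 7.97 ± 0.210%. Ccl7, Ccl5 and Ccl3 were at 97.8, 55.3 and 38.1 TPM, while Il6, Il12b and Ccl17 had no counts. The median member of the cytokine and chemokine list stood at 21.2 TPM, close to the median detected gene at 23.04 TPM.

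Because the series tests the Notch pathway, its genes were listed apart, and 16 of 26 were detected. Notch2 held 84.8 ± 0.239% of the Notch receptors at 49.8, 54.03 and 50.2 TPM, Notch1 stood at 6.13 ± 0.329 TPM, Notch4 at 2.97 ± 0.238 TPM and Notch3 at 0.128 TPM. Jag1 was the main ligand at 16.3 ± 0.584 TPM. The proteases that cut the receptor and their cofactors were higher than the receptors, with Adam10 at 176 ± 12.9 TPM, Ncstn at 153 ± 2.23 TPM and Adam17 at 102 ± 3.30 TPM. Psenen was at 85.2 and Aph1a at 64.1 TPM. Hes1, a target of Notch whose loxP sites define these cultures, had 6, 11 and 6 counts, or 0.432, 0.570 and 0.334 CPM. It lay below 1 CPM in all 3 libraries. Dtx1, a Notch regulator, was lowest at 0.0110 TPM, and Dll3 had no counts.

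Macrophage genes remained abundant beside the osteoclast genes. Of 34 on the list, 31 were detected, and they held 18469.5, 16737 and 17054 CPM. Lyz2 was at 16605, 15142 and 14970.5 TPM, Lgals3, galectin-3, at 3178 ± 144 TPM, Apoe at 1379 ± 135 TPM and Sirpa at 1044 ± 30.5 TPM. The complement subunits C1qb and C1qa were at 886 ± 125.9 TPM and 802 ± 75.4 TPM. Several of these genes, such as Cd68 and Csf1r, are expressed by osteoclasts as well. Bulk RNA does not separate macrophages left in the culture from osteoclasts that keep these transcripts, and fewer cells of a type and less RNA per cell cannot be told apart. Replicate 1 was highest for 26 of 31 members at a mean of 1 CPM or more, against 37.5% of all genes at that level. Ly6c1, of monocytes, was lowest at 0.301 TPM.

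Antigen presentation was carried by class I. B2m, the light chain shared by class I molecules, was at 6759, 5995 and 5904 TPM, and H2-D1 and H2-K1 at 2257 ± 184 TPM and 1157 ± 153 TPM. Tapbp was at 214, Psmb8 at 143, Tap2 at 127, H2-T23 at 124 and Psmb10 at 114 TPM. Class I members have closely related sequences, so their split is uncertain. The list held 5924, 4919 and 5035 CPM. Class II and dendritic cell genes were sparse, with 13 of 22 detected. Bst2, an interferon-induced membrane protein also made by other cells, led at 370.1 ± 54.9 TPM, then Cd74, the invariant chain, at 144, 85.3 and 115 TPM. H2-DMb1, H2-Ab1 and H2-Eb1 were at 23.8, 20.98 and 17.7 TPM, Itgax at 11.1, Cd80 at 10.99 and Cd40 at 8.29 TPM. Siglech, of plasmacytoid dendritic cells, and Cd209a had no counts.

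Transcripts of lymphocytes, erythroid cells and mast cells were rare, while most listed neutrophil genes were detected. The median member of the neutrophil list stood at 25.9 TPM, close to the median detected gene at 23.04 TPM. The neutrophil list held 370.1, 389.8 and 467 CPM, 0.0409% of the counts, and 17 of 19 members were detected. S100a9 was at 321, 417 and 468 TPM, S100a8 at 209.6 ± 23.3 TPM, Ngp at 166 ± 35.6 TPM and Chil3 at 117 ± 13.1 TPM, while Ly6g, a surface marker of mature neutrophils, was at 1.10 TPM. Replicate 3 was highest for 12 of 17 members at a mean of 1 CPM or more, against 32.3% of all genes at that level. Lymphocyte genes held 22.1, 20.8 and 19.4 CPM, Cd3e and Ncr1 had no counts, and the highest member, Ighm, was at 15.2 TPM. The genes of hemoglobin (Hba-a1, Hba-a2, Hbb-bs and Hbb-bt) had no counts in any library, nor had Alas2, Car1 and Slc4a1. Without Tfrc, which most dividing cells express, the erythroid list held 0.144, 0.0518 and 0.0556 CPM. Mast cell genes such as Cpa3, Mcpt4, Cma1, Tpsb2, Ms4a2 and Fcer1a were at 0. Without Pf4, a chemokine that macrophages express as well, that list held 7.42, 7.88 and 8.73 CPM.

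Most stromal transcripts were at low level. Of 28 genes on the list 16 were detected. The median member stood at 1.44 TPM, against 23.04 TPM for the median detected gene. Spp1, Col1a1, Sparc and Acta2 had means above the latter. Without Spp1, which osteoclasts express, the stromal and osteoblast list held 397, 360.3 and 336 CPM. Col1a1, the type I collagen chain, was at 62.5, 60.1 and 56.7 TPM, Sparc at 27.4 ± 3.75 TPM, Acta2 at 25.9 ± 3.06 TPM and Col1a2 at 20.2 ± 2.32 TPM. Bgn was at 11.1, Col3a1 at 10.6 and Col6a1 at 9.70 TPM. Bglap, of mature osteoblasts, had 0, 0 and 2 counts, Sost, of osteocytes, had 0, 2 and 0 counts, and Lum had none. These low members do not stand for the whole set. Of 8 stromal and osteoblast markers (Col1a1, Col1a2, Col3a1, Lum, Dcn, Runx2, Sp7 and Bglap), 3 had a mean below 1 CPM. The 8 markers held 249.9, 228.5 and 210.7 CPM in sum. Adipocyte genes other than Lpl, a lipase that macrophages express as well (407 ± 17.8 TPM), held 4.61, 6.22 and 4.62 CPM, and Adipoq, Retn and Lep had no counts. Endothelial genes held 62.4, 52.04 and 52.8 CPM, most of it Eng at 32.9 ± 4.63 TPM, and Cldn5 had no counts.

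**Figure D3:**
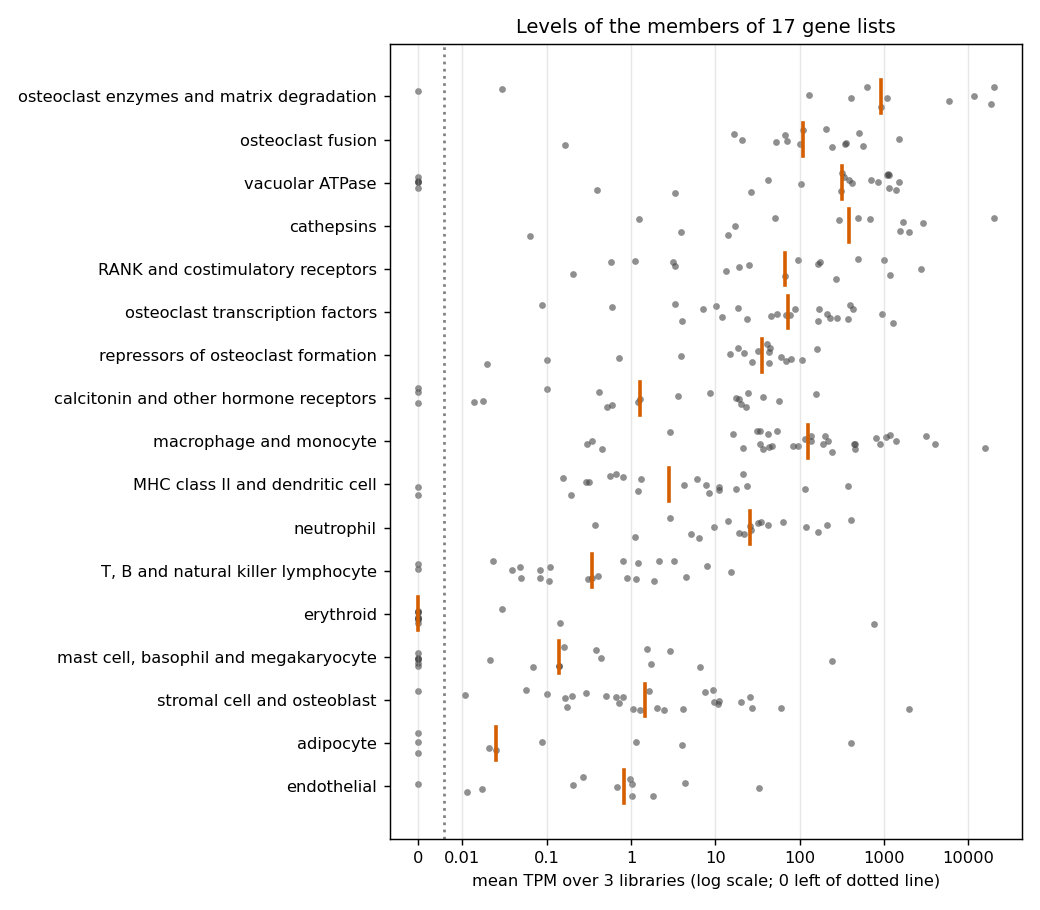
Mean TPM over 3 libraries of each member of 17 gene lists in wild type Hes1 loxP osteoclasts, on a log axis with genes at 0 left of the dotted line; each point is a gene and the vertical bar is the median of the list. The median member of the osteoclast enzymes lies at 931 TPM and that of the fusion genes at 108 TPM, while the median lies at 0.345 TPM for lymphocytes and at 0 for erythroid genes.

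Genes of energy metabolism were abundant. All 70 nuclear-encoded genes of the respiratory chain and all 21 genes of the tricarboxylic acid cycle were detected, with 15233, 15308 and 15414 CPM and 7729, 7969.8 and 7923 CPM. Atp5b and Atp5a1, of ATP synthase, were at 1729.9 ± 12.7 TPM and 1672 ± 38.6 TPM, Cox6a1 at 1664 ± 98.1 TPM and Cox8a at 1475 ± 32.5 TPM. Mdh2 led the cycle at 868 ± 16.7 TPM, and Sdhd was at 709 ± 29.6 TPM. Of 29 genes of glycolysis, 24 were detected, with 18015, 16032 and 16533 CPM. Aldoa led at 3610.3, 3195 and 3509.9 TPM and held 98.7 ± 0.0974% of the aldolases. Pkm was at 2173 ± 105 TPM, Gapdh at 1765 ± 55.7 TPM, Pgk1 at 1528 ± 113 TPM, Ldha at 1497 ± 161 TPM and Eno1 at 1281 ± 86.9 TPM. Slc2a1 held 70.4 ± 3.04% of the glucose transporters, and Hk1 51.2 ± 2.50%, Hk3 32.95 ± 3.70% and Hk2 15.5 ± 1.67% of the hexokinases. Pklr, the pyruvate kinase of liver and red cells, had no counts. Replicate 1 was highest for 17 of 24 genes of glycolysis at a mean of 1 CPM or more. Among all genes at that level the share was 37.5%.

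Genes encoded in mitochondrial DNA took 0.949, 1.32 and 1.03% of the counts, highest in replicate 2. mt-Nd1 was at 5962, 7399.9 and 6469 TPM, mt-Cytb at 4761, 6937 and 5272 TPM and mt-Nd2 at 2700.2 ± 347 TPM. Subunits of the same complexes were almost absent. mt-Co3 had 24, 150 and 35 counts and mt-Atp6 had 33, 23 and 45 counts. In mt-Co3, 99.9% of the 75-base words occur in other annotated transcripts, in mt-Atp6 99.5% and in mt-Co2 99.5%, against 0% in mt-Nd1, and reads that align to several places are not counted. The levels of mt-Co3, mt-Atp6, mt-Co2, mt-Nd3 and mt-Nd4l are therefore lower bounds. The same limit applies to mt-Nd4, with 61.5% of such words shared, to mt-Co1, with 39.8%, and to the summed mitochondrial share. mt-Atp8 shares no such word and was at 0.980 TPM, and a cause of this was not tested.

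Iron handling and cholesterol synthesis were described because mitochondria and membranes expand in osteoclasts. All 15 iron genes were detected, with 13839, 13553 and 13621 CPM. Ftl1 and Fth1, the ferritin chains, were at 11104 ± 341 TPM and 5663 ± 15.002 TPM, and Tfrc, the transferrin receptor, at 733, 769 and 799.8 TPM. Hmox1, heme oxygenase 1, was at 760.2 ± 76.001 TPM, Pcbp1 at 745 ± 11.6 TPM and Slc11a1, a metal transporter of the phagosome, at 200.4 ± 11.9 TPM. Slc40a1, the iron exporter ferroportin, was lowest at 7.09 ± 1.62 TPM. All 23 cholesterol genes were detected, with 1811, 1668 and 1649 CPM. Srebf2, the factor that induces the pathway, was at 115 ± 4.46 TPM, Insig1 at 87.6 ± 13.3 TPM, Npc1 at 80.5 ± 3.49 TPM and Hmgcs1 at 65.2 ± 5.88 TPM. Fdps, the target of nitrogen-containing bisphosphonates in osteoclasts, was lowest at 1.26, 0.828 and 1.15 TPM. In Fdps, 9.24% of the 75-base words are shared with other annotated transcripts and 26.7% of its exon bases overlap another gene.

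Cell cycle genes were expressed in the cultures, although mature osteoclasts do not divide. Of 30 on the list, 29 were detected, with 3562, 3621 and 3462 CPM. Pcna was at 250.3 ± 9.51 TPM, Ccnd1 at 193 ± 5.85 TPM, Mcm6 at 184 ± 7.28 TPM and Mcm5 at 162 ± 4.94 TPM, and the mitotic genes Ccnb2 and Top2a at 154 ± 3.98 TPM and 132 ± 8.84 TPM. Mki67, a marker of dividing cells, was at 117, 142 and 119.8 TPM. Of 24 immediate early and stress genes, which respond to handling, 23 were detected and 6 had a mean of 100 TPM or more. These were Hsp90aa1 at 533 ± 49.02 TPM, Fos at 229 ± 8.05 TPM, Klf6 at 131 ± 6.64 TPM, and Junb, Myc and Jun, whose levels are given with the transcription factors. Ier2 was at 78.4 ± 4.27 TPM and Zfp36 at 58.5 ± 0.574 TPM, the median member stood at 21.7 TPM, and the list held 1767, 1822 and 1779.9 CPM. The Y-linked genes Eif2s3y, Ddx3y, Uty and Kdm5d were at 37.2, 31.5, 6.77 and 5.11 TPM, Xist had 0, 3 and 0 counts, and Tsix, Zfy1 and Sry had none. The labelled sex is male.

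The 3 libraries were close to each other. Between pairs of libraries, the median absolute log2 difference over the 8732 genes at a mean of 10 CPM or more was 0.079 to 0.084, and 2 to 11 genes differed by more than 2-fold. Set against sampling noise alone, the chi-square per gene (1 degree of freedom) had a mean of 4.68 to 5.64 and a median of 1.13 to 1.18 over pairs. Sampling noise alone gives a mean of 1 and a median below 1, so both lay above it. The comparison with sampling noise does not tell separate cultures from separate preparations of the same RNA. The 3 libraries were counted as 3 samples by their labels. The coefficient of variation (CV, the SD divided by the mean) had a median of 15.3% for genes at 1 to 10 CPM, 5.46% at 10 to 100 CPM, 3.81% at 100 to 1000 CPM and 3.91% above. Counting error alone gives 13.2, 4.12, 1.86 and 0.623% in the same classes. The common biological coefficient of variation that edgeR estimated after removing counting error was 5.95%. The same estimate was 6.05% in the Notch2 mutant Hes1 loxP group, 6.48% in the wild type Hes1 deletion group and 5.08% in the Notch2 mutant Hes1 deletion group, and these differences were not tested.

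Part of the spread was shared by genes of the same list. Interferon-stimulated genes held 1292, 984 and 933 CPM, and replicate 1 was highest for 24 of 25 at a mean of 1 CPM or more. Irf7, the factor that amplifies the interferon response, was at 189, 133 and 132 CPM and Isg15, a ubiquitin-like modifier, at 28.4, 16.02 and 15.3 CPM. Oasl1, with 70.4, 70.2 and 69.9 CPM, differed little between libraries, at a CV of 0.406%. Class I genes were highest in replicate 1 for 13 of 14 members, and cholesterol genes for 18 of 23. The osteoclast enzymes and transcription factors were highest in replicate 3, as given above. Over all genes at a mean of 1 CPM or more, replicate 1 was highest for 37.5%, replicate 2 for 30.3% and replicate 3 for 32.3%. The summed macrophage, class II and interferon-stimulated levels were all highest in replicate 1, and the part of cell makeup in this was not tested.

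**Figure D4:**
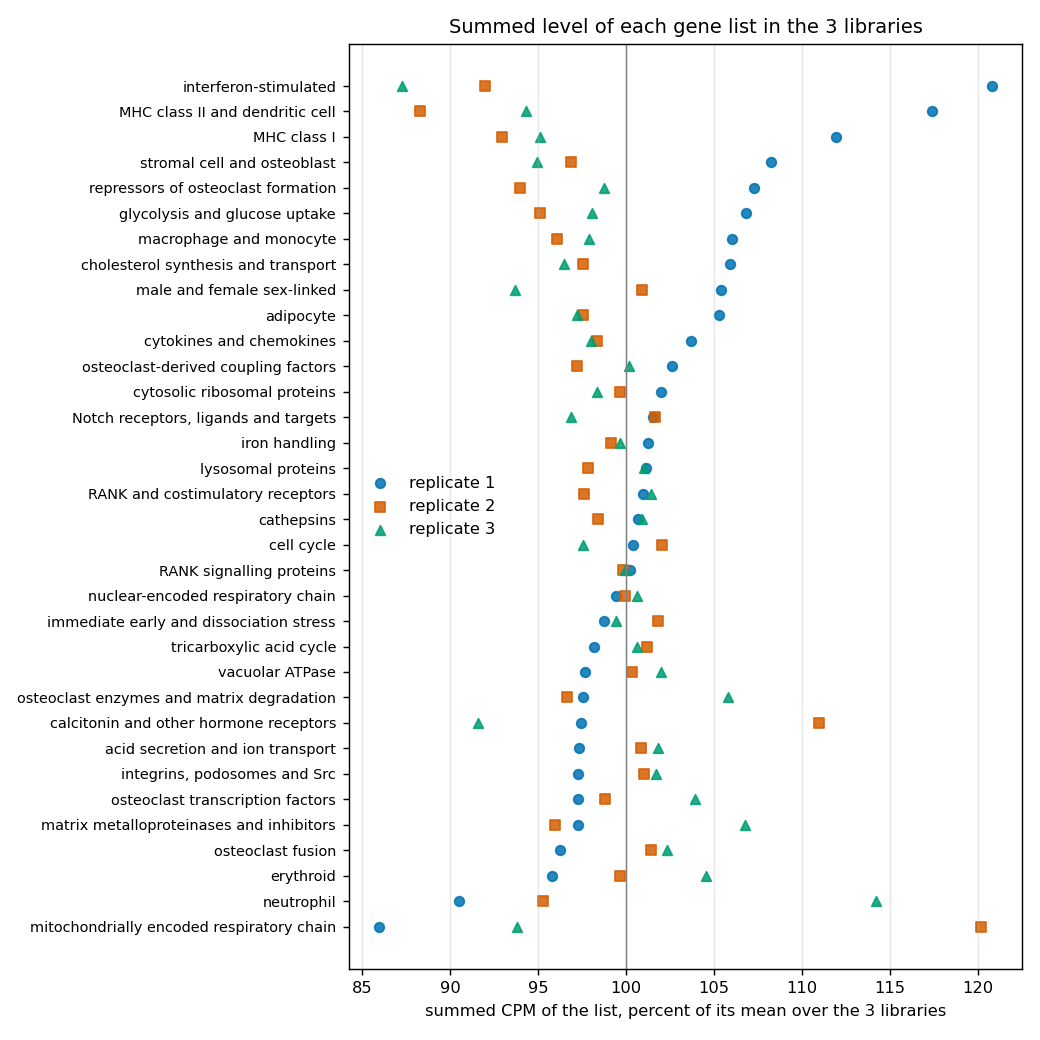
Summed CPM of each gene list with at least 100 CPM in each of the 3 wild type Hes1 loxP libraries, as a percent of the list's mean over the 3. Interferon-stimulated and class II lists lie highest in replicate 1, the mitochondrially encoded list in replicate 2 and the neutrophil list in replicate 3, while RANK signalling proteins lie within 1% of their mean.

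The gene with the largest spread at a mean of 10 CPM or more was Marco, a scavenger receptor of macrophages, at 207, 94.3 and 77.3 CPM, a CV of 55.8%. Zbp1, a sensor of nucleic acids, was at 28.5, 12.5 and 12.2 CPM, Irf1 at 81.2, 34.8 and 37.04 CPM and Acod1, the enzyme that makes itaconate, at 67.97, 31.7 and 29.6 CPM. Replicate 1 was the high library for each of them. It was also the highest for Slamf8, Plac8, Igtp, Gbp9, Irgm2, Dcbld2, Arg1 and Isg15, and so for 12 of the first 15. The exceptions were Spint1, lowest in replicate 1 at 7.28, 15.9 and 16.9 CPM, and the pair Tdrd9 and Clba1, which were highest in replicate 3 at 50.8, 51.3 and 97.2 CPM and 25.7, 24.6 and 46.2 CPM. At a mean of 100 CPM or more, mt-Nd5, mt-Nd4, mt-Co1, mt-Cytb and Macf1, a very large cytoskeletal linker, were highest in replicate 2, and Macf1 was at 289, 414 and 300.5 CPM. Scd2 at 285, 223 and 182 CPM, Ccl6 at 237, 175 and 157 CPM, Cd36 at 243, 198 and 163 CPM and F13a1 at 311, 221 and 246 CPM were highest in replicate 1, as were Irf7, Tap1, Parp14 and Tbc1d23. The noncoding RNA Neat1 was lowest in replicate 2.

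**Figure D5:**
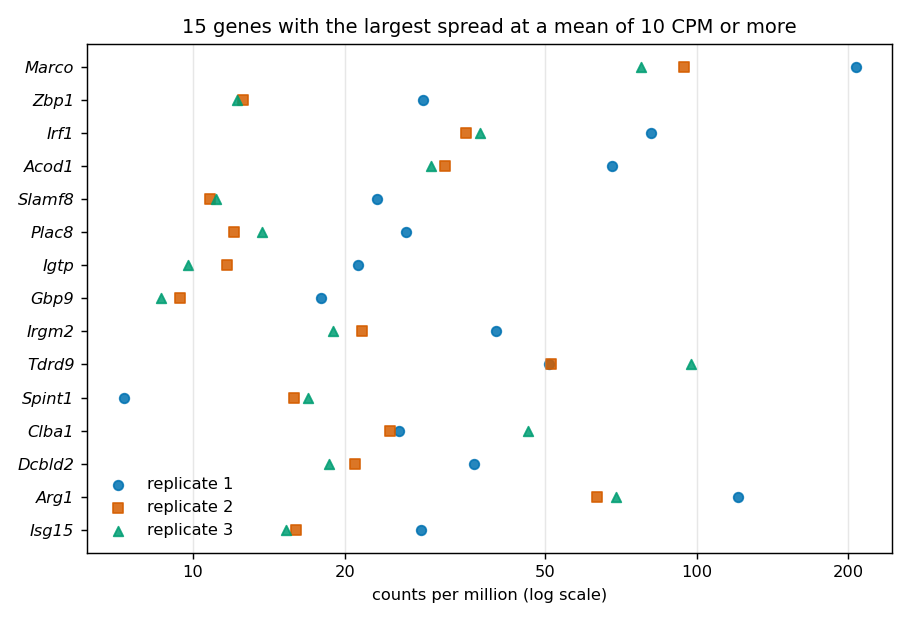
CPM on a log axis in each wild type Hes1 loxP library for the 15 named genes with the largest CV among those at a mean of 10 CPM or more. Replicate 1 lies apart on the right for 12 genes, and replicate 3 does for Tdrd9 and Clba1.

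At the other end, the 10 genes with the smallest CV at 100 CPM or more varied by at most 0.242%, below the counting error at their level. Among them were Hmga1, Sympk, Hnrnpl, Cox6c, Mdm2, Itgb1, Anapc5, Trak1 and Rtn3. Itgb1, for instance, was at 625, 625 and 622 CPM. Gene length moved with the libraries as well. For the 1707 genes with exons of 5472 bases or more in sum, the median log2 difference from the other libraries was -0.02 in replicate 1, 0.05 in replicate 2 and -0.03 in replicate 3. For the 1708 genes with at most 2076 bases it was 0.01 in replicate 1, -0.03 in replicate 2 and 0.01 in replicate 3. Its part in the spread of Macf1 and Lrp1 was not tested.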

How the data were processed

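RNA of 3 wild type Hes1 loxP osteoclast cultures was read as stranded mRNA libraries, paired-end 75 bp, in a single pool, per the labels' protocols. The deposited values are raw counts per gene ID, not normalized by the authors. Build GRCm38 and the tools DESeq2, HISAT2, HTSeq, Picard and SAMtools were used per the submitters' processing notes. In the sources used here, versions, annotation release and strand setting are not given. Of each file, 5 summary rows (15.8 to 18.95% of the total) were left out of library sizes. Ambiguous reads made up 6.17 to 8.31% and reads not uniquely aligned 5.999 to 6.44% of the total, so genes with overlaps or near-identical copies are understated.

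Of 55414 IDs, 52133 were named by ID through GENCODE M21 (GRCm38), the source of positions (1-based) and exon lengths. IDs without a name took up to 0.167% of the counts. CPM used all assigned counts, with depths of 13873032 to 19293772. TPM used the union of exons. Calculations ran in Python 3.11.15 (pandas 2.3.3, numpy 2.4.6) with figures by matplotlib 3.10.9, and the common dispersion in R 4.3.3 with edgeR 4.0.16 (TMM scaling) or, as an alternative, DESeq2 1.42.0; the estimate was tested on simulated data. No group comparison and no test was made. With no molecular identifiers, floors (3 counts) cover counting error only. Shared sequence was the share of a gene's 75-base words found in transcripts of other genes.

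Of 794 listed symbols in 36 lists, 789 were matched. The genes, lists and families were chosen with earlier results of these data known. Named genes were the 7 markers, the first 25 by CPM and by TPM, up to 8 leading members, those at 0 and the lowest member of each list, all family members, the 15 most variable at 10 and at 100 CPM and the 10 least variable. Others (Irf8, Hes1, Ostm1, Trem2, Tnfrsf11b, Csf1, Il34, Prdm1, Vdr, Pth1r, Bglap, Sost, Ly6g, Lamp1, Lgmn, Glb1, Tpp1, Igf2r, Gla, Sgsh, Cln3, Mcoln1, Lamtor1, Ppt1 and some V-ATPase subunits) were chosen after their values were seen. Some genes that fall under this rule are not reported here. Alternatives covered scaling, mitochondrial genes, transcript length, thresholds and leaving out each replicate.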

Additional observations from a re-analysis of the deposited data

How the results depend on the processing

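Of 524 values recomputed for 103 results, 44 moved by more than the spread or size set for a change, 38 of them under settings other than leaving out a replicate. Summed levels of the 36 lists and of the other cell types' markers, and CPM of the 7 markers, stayed within 1 SD under TMM scaling and DESeq2 size factors. Leaving out 1 of 3 libraries cannot move a mean by 1 SD, so it is no check of these levels. With mitochondrially encoded genes left out, the first 100 genes held 21.1% and the first 1000 held 54.5% of the counts. That smaller total also raised RANK signalling proteins to 3425 CPM, the nuclear-encoded respiratory chain to 15489 CPM and iron handling to 13823 CPM. The number of detected genes was 12048 by a mean of 1 CPM, 12608 at 0.5 CPM and 16245 at 1 count in all 3 libraries. With the longest transcript as length, 22 of the first 25 genes by TPM were shared, Mmp9 passed Ctsk (15735 and 15109 TPM), and Pprc1 and Cd9 led the PGC-1 and tetraspanin families in place of Ppargc1b and Cd63.

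The biological coefficient of variation was 5.15 to 6.43% when each replicate was left out, lowest without replicate 1, and the DESeq2 dispersion gave 8.40%. The median CV was 4.95% over genes at 10 CPM or more and 3.85 to 4.13% when each replicate was left out, where a lower value follows from taking the SD of 2 libraries. It was 6.24% over genes at 1 CPM or more, a threshold chosen after seeing the data, which adds genes with more counting error. No paired analysis was possible because a single group was described and no groups were compared. With 3 libraries, an SD is imprecise, and below about 10 CPM counting error makes up most of the spread. It remains a large part at 10 to 100 CPM, where counting error alone gives 4.12% and the median CV was 5.46%.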

Other observations

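Abundant genes outside the lists, chosen after their values were seen, included structural and membrane proteins. Vim, vimentin, was at 3051, 3046 and 3091 TPM and among the evenest of the first 25 genes. Gpnmb, a membrane glycoprotein of lysosomes, was at 1111, 1247 and 1269 TPM, Lcp1, the actin bundler plastin 2, at 915, 990.5 and 951 TPM, and Nrp2, a receptor of semaphorins, at 564, 644 and 608 TPM. Sh3bgrl3 was at 4682 ± 306 TPM and the actin-sequestering Tmsb4x at 4221 ± 124 TPM. Together, 85 genes of cytosolic ribosomal proteins held 41098, 40147 and 39620.5 CPM, or 4.03% of the counts, and 81 were detected. That share is a lower bound, since reads that align to several places are not counted. Transcripts of other genes hold 45.9% of the 75-base words of Rplp1, 27.4% of those of Rplp0 and 16.9% of those of Rps15. Of noncoding transcripts, Neat1 was at 286, 210.3 and 294 CPM, Malat1 at 212, 218 and 254 CPM and Firre at 90.8, 80.3 and 96.999 CPM. The annotated pseudogene Gpr137b-ps was at 410.1, 409.8 and 418 CPM, the highest of its class.

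Tdrd9, which encodes a helicase known from germ cells, and Clba1 lie on chromosome 12 and varied together in the 3 libraries. Between Tdrd9 (chr12:111971559-112068854) and Clba1 (chr12:112808937-112816252), the 7 other genes at 10 CPM or more had a level in replicate 3 of 0.914 to 1.15 times the mean of replicates 1 and 2. Over all 12 libraries, in the order of replicates 1, 2 and 3, Tdrd9 was at 50.8, 51.3 and 97.2 CPM in wild type Hes1 loxP, 106, 101 and 62.1 CPM in Notch2 mutant Hes1 loxP, 4.05, 51.8 and 3.89 CPM in wild type Hes1 deletion and 50.1, 6.44 and 4.30 CPM in Notch2 mutant Hes1 deletion cultures. Clba1 was at 25.7, 24.6 and 46.2 CPM in wild type Hes1 loxP, 49.4, 49.1 and 27.5 CPM in Notch2 mutant Hes1 loxP, 4.74, 26.1 and 4.45 CPM in wild type Hes1 deletion and 25.2, 4.51 and 3.99 CPM in Notch2 mutant Hes1 deletion cultures. The libraries low in Tdrd9 were the libraries low in Clba1, and likewise for the high ones, within every group where libraries differed. Both genes thus varied among replicates of a group far more than the typical gene at their level, and a cause was not tested. Marco, highest in replicate 1 of wild type Hes1 loxP, was at 207, 94.3 and 77.3 CPM in that group, 115, 76.8 and 96.1 CPM in Notch2 mutant Hes1 loxP, 92.6, 95.5 and 63.2 CPM in wild type Hes1 deletion and 112, 66.5 and 87.4 CPM in Notch2 mutant Hes1 deletion cultures.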
